A study of Rattus norvegicus with 6 samples.

Results

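The collagen genes of the rat were taken as every gene whose symbol is Col, a type number, the letter a and a chain number, which gave 42 of the 30452 genes measured. The series is a single-cell RNA-seq study of the hippocampus of male rats, with 3 control samples and 3 samples that were irradiated over the whole brain with 20 Gy, dissected 2 months later. Minced tissue was shaken in a warm dissociation solution and filtered to single cells, so the values describe cells that survived dissociation. All 6 samples lay in 1 matrix of molecule counts (UMIs, unique molecular identifiers), in which the end of each cell barcode named 1 of 6 libraries. The labels tied 0 of these libraries to a control or irradiated sample, so the matrix was treated as 1 pooled sample, no group was compared with the other, and no test was made.

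Collagens are proteins of the extracellular matrix whose chains wind around each other into rope-like helices. Fibril-forming chains build tensile fibres, fibril-associated chains coat them, type IV chains form the sheet-like network of basement membranes around vessels, and transmembrane collagens stay attached to the cell that makes them. Healthy brain tissue holds few fibres, and most of its classical collagen lies in vessel walls and meninges.

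The stretch between Col4a1 and Col4a2 is shown because both genes, which encode chains of the type IV network and start in opposite directions, were called higher in the same classes, vessel wall, endothelial-like and precursor-like cells. In the RefSeq table of promoters (build GRCr8) their starts lay 76 bases apart, at chr16:84885521-84885596, printed on the plus strand, along which Col4a1 is read. Capitals mark the motif GGGCGG (GC box), here on the minus strand; CCAAT and TATAAA were searched on both strands and their letters are not in this stretch.
Col4a1 and Col4a2, between the starts: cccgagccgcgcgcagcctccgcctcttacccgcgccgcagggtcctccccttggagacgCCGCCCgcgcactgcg
Of 27457 genes in the table, 583 (2.12%) had a start on the other strand this close or closer, and among the 33 collagen genes with a promoter there these were the 2 type IV genes. A further set of windows of 250 bases before the start is shown, each on the strand of its gene, because Col11a2 and Col27a1 stood highest in the same cells, the astrocytes, and Col5a3 in others, the oligodendrocyte precursors. Col11a2 lies at chr20:4817649-4817898 on the minus strand, Col27a1 at chr5:81662658-81662907 on the plus strand and Col5a3 at chr8:27625949-27626198 on the minus strand. Capitals again mark the searched motifs on either strand.
Col11a2: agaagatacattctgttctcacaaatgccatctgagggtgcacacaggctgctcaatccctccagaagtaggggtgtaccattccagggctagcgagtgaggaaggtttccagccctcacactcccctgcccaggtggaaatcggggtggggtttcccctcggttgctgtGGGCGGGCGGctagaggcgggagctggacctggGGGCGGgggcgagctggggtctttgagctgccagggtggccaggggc
Col27a1: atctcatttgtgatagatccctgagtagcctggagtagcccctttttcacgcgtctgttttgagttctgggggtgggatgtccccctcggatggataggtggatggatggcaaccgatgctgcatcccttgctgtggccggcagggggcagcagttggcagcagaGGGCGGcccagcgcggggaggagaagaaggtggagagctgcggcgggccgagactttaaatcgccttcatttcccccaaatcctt
Col5a3: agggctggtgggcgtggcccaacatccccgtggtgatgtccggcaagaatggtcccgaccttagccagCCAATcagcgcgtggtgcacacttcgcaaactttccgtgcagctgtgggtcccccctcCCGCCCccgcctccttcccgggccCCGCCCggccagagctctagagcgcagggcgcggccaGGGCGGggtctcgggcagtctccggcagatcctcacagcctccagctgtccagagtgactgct
Matches to GGGCGG numbered 3 in Col11a2, of which 2 overlap, 1 in Col27a1 and 3 in Col5a3, where 1 CCAAT also stood. Over all 33469 promoters of this length 30.5% held GGGCGG, 34.0% CCAAT and 12.9% TATAAA, against 18, 11 and 4 of the 33 collagen genes. The units differ: the background counts promoters, while a collagen gene with several promoters was counted if any of them held the motif. These matches describe letters and were not tied to binding.

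After filters 44800 cells remained, from 5370 to 9563 per library, with 36462771 to 47971209 UMIs per library and a median of 4179 to 6414 UMIs per cell. Only 242 of 44558 kept barcode sequences occurred in more than 1 library. Cells were clustered without any collagen gene, and clusters were named from markers that include none, so no collagen gene entered the definition of a class. In RefSeq 23 of the 42 collagen genes overlap another gene, among them Col1a1 (with Sgca), Col20a1 (with Chrna4), Col4a1, Col5a2, Col16a1, Col15a1, Col18a1 and Col25a1, and whether counting used strand is not given in the sources used here, so reads of overlapping genes could be mixed. The astrocyte-like class passed 13 of 13 astrocyte markers, the precursor-like class 9 of 9 oligodendrocyte precursor markers, the endothelial-like class 9 of 9 endothelial markers, the microglia-like class 9 of 11 microglial markers and a class of Clec7a/Lyz2 macrophage-like cells 6 of 6 of its markers. Mature neurons formed no named class. Libraries differed in makeup: 1 to 3 held 4185, 5704 and 7050 microglia-like cells and 121, 79 and 167 Clec7a/Lyz2 macrophage-like cells, while 4 to 6 held 270, 368 and 29 against 1938, 3295 and 2563.

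Among 256895722 UMIs in kept cells, 193555 came from collagen genes (a level of 753 CPM), and 81.0% of these lay in astrocyte-like cells. Of the 42 genes, 36 had at least 30 UMIs, 5 had between 9 and 23, and Col6a5, a type VI chain, had none. Col11a2 alone gave 54.0% of the collagen UMIs, and with Col27a1, Col16a1 and Col5a2 86.8%. CPM stands for counts per 1000000 UMIs of the cells in question, and levels are given with an exact Poisson 95% interval that covers counting error only. The cells of vessel walls carried the highest summed level, 4912 CPM (4671 to 5163), followed by precursor-like cells at 2097 (1993 to 2205) and astrocyte-like cells at 2013 (2003 to 2023), whose intervals overlap. Endothelial-like cells held 1311 CPM (1233 to 1393). Microglia-like cells at 167 (165 to 170), Clec7a/Lyz2 macrophage-like cells at 154 (151 to 158) and T or NK cell-like cells at 109 (99.6 to 119) lay far below. Without Col11a2 the sums were 4833 in vessel wall cells, 1949 in precursors, 1273 in endothelial cells, 855 in astrocytes, 103 in microglia, 68.4 in Clec7a/Lyz2 macrophages and 42.8 in T or NK cells. The types differed as well: fibril-forming chains made up 1716 CPM in astrocytes and 1679 in precursors, whereas type IV chains made up 869 CPM in endothelial cells.

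**Figure D1:**
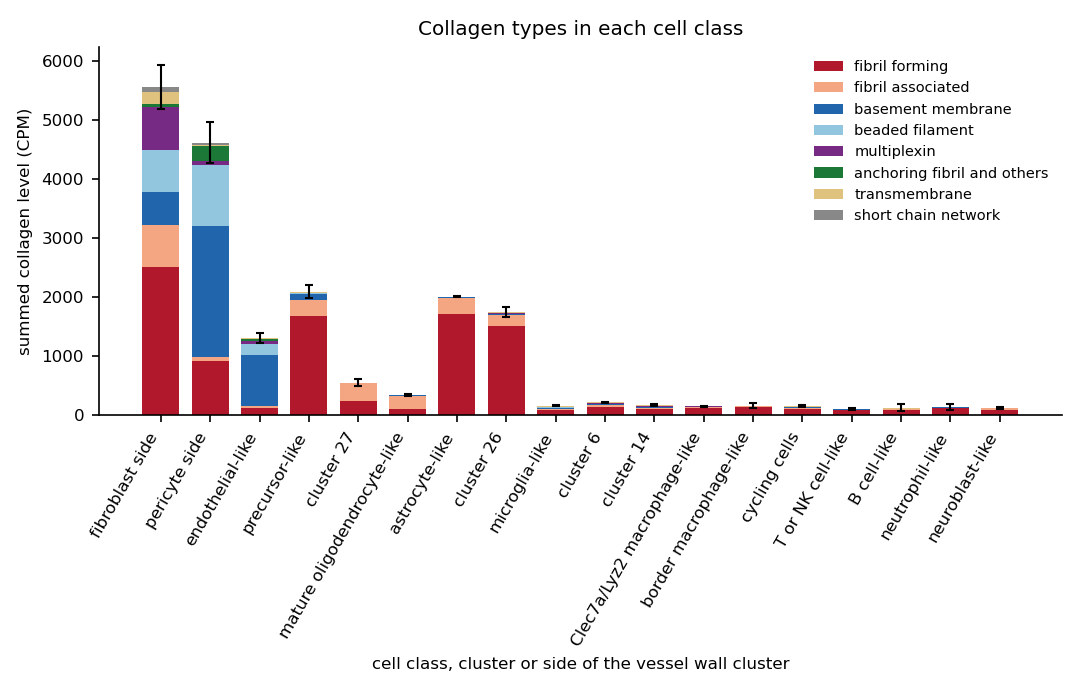
Bars give the summed collagen level (CPM) of each class, stacked by collagen type, with the vessel wall cluster split into its fibroblast and pericyte sides; error bars are exact Poisson 95% intervals of the sum. The fibroblast side reaches 5559 CPM and the pericyte side 4614, while microglia-like cells stay at 167.

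A gene was called higher in a class where its CPM was at least 2-fold above the median of the other classes and clusters of at least 50 cells (17 in all), with 10 CPM added to both, among the 16410 genes with at least 30 UMIs. By this rule 26 collagen genes were called in at least 1 class. The share of all genes called in at least 1 class was not computed, so this count is not set against a background. Vessel wall cells had 20 of the 36, where 10.1% of all genes were called, and the median log2 ratio of the collagen genes was 1.74 against 0.02 for all genes. Precursor-like cells had 9 (16.9% of all genes), endothelial-like cells 9 (9.34%), astrocyte-like cells 5 (11.8%), a cluster with markers of both precursors and mature oligodendrocytes 4 (9.1%), mature oligodendrocyte-like cells 3 (8.26%) and microglia-like cells 1 (3.24%). Clec7a/Lyz2 macrophage-like cells had 0 (3.75%), T or NK cell-like cells 0 (5.93%), border macrophage-like cells 0 (4.13%), neutrophil-like cells 0 (6.05%), neuroblast-like cells 0 (13.5%) and dividing cells 0 (5.22%). In astrocytes the median collagen gene had a log2 ratio of 0.05 (all genes 0.05) and in precursors 0.14 (all genes 0.25), so a few genes carried these classes. With 1 CPM added in place of 10, the counts were 17 in precursors, 15 in endothelial cells, 11 in astrocytes and 3 in microglia. The shares of all genes called with 1 CPM added were not computed, so these counts have no background beside them. A further cluster of 97 cells with astrocyte and microglial markers (cluster 26) had 5 calls (7.11%), Col11a2, Col27a1, Col16a1, Col5a2 and Col9a3.

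**Figure D2:**
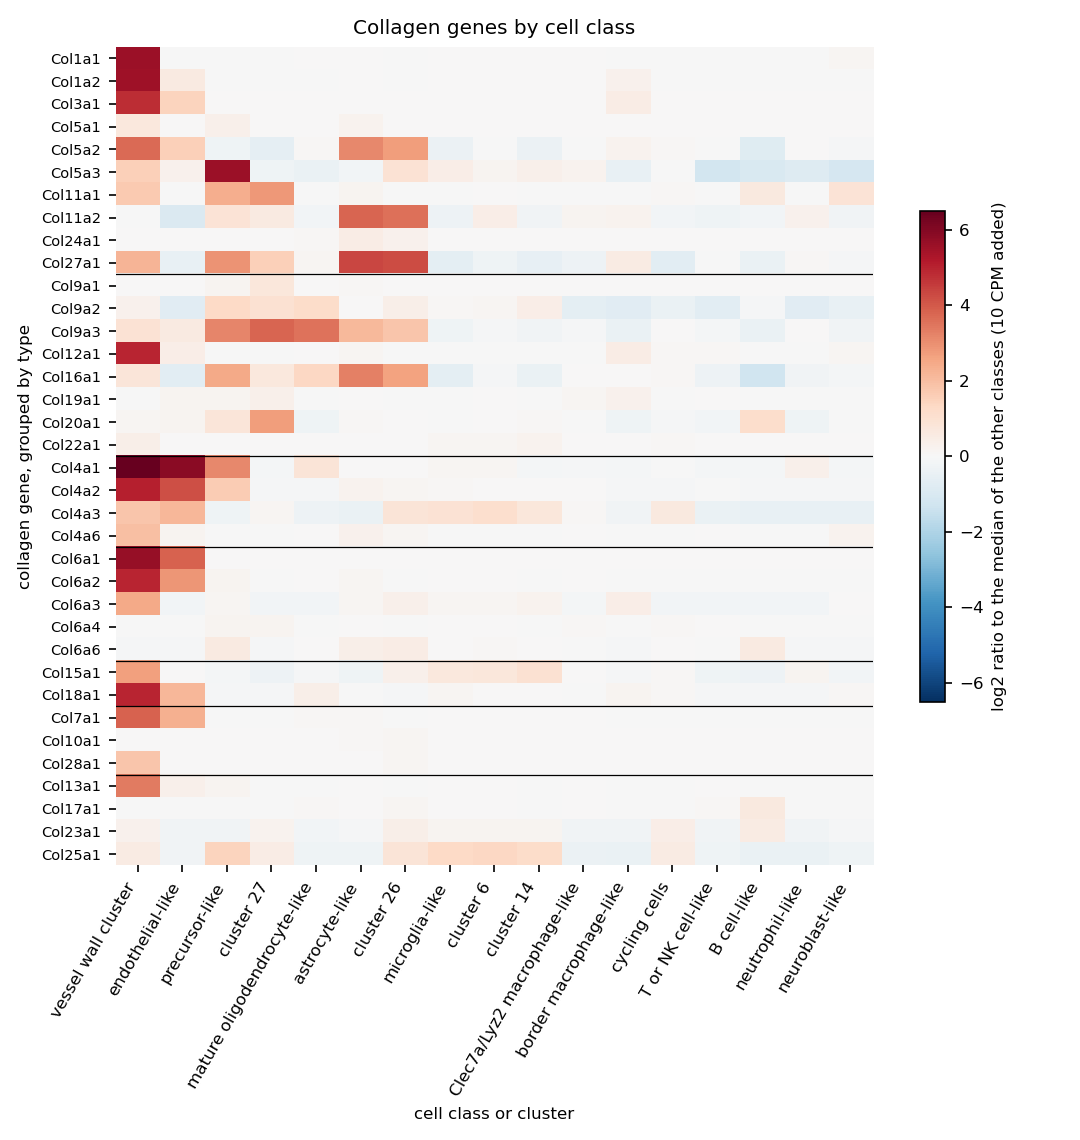
Colour gives the log2 ratio of each of the 36 collagen genes with at least 30 UMIs (vertical, grouped by type) in each class or cluster (horizontal) to the median of the other classes, with 10 CPM added. Vessel wall cells stand out for 20 genes, astrocyte-like cells for 5 and precursor-like cells for 9, while the immune classes are nearly blank.

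In the 11868 astrocyte-like cells the called genes were Col11a2, Col27a1, Col16a1, Col5a2 and Col9a3. Col11a2, a minor fibril-forming chain best known from cartilage, measured 1158 CPM (1151 to 1166), against a median of 76.2 in the other classes (log2 ratio 3.76). Across libraries 1 to 6 it stood at 1406, 1013, 1483, 1283, 1064 and 972 CPM, so libraries 1 and 3 were highest and library 6 lowest. A Col11a2 UMI was present in 85.0% of astrocyte-like cells (median 5984 UMIs per cell) and in 24.7% of T or NK cell-like cells (median 4232), which are not expected to make collagen. With each cell thinned to 2000 UMIs the shares were 82.97% in 9510 astrocytes and 11.7% in 829 T or NK cells that reached this depth. Free RNA was not removed: in T or NK cells Col11a2 stood at 5.72% of its astrocyte level, while 13 astrocyte marker genes stood there at a median of 4.42%, from 3.23 to 6.36 apart from S1pr1 at 27.8. In microglia Col11a2 stood at 5.54% of its astrocyte level, above 12 of the 13 markers, whose median was 2.48% and of which Slc1a3 alone stood higher, at 6.95%. The part of free RNA in the Col11a2 levels outside astrocytes was not tested.

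Col27a1, a fibril-forming chain, measured 397 CPM (393 to 402) in astrocytes against 9.79 elsewhere (log2 4.36) and ranged over libraries from 356 to 512. Col16a1, which attaches to fibrils, measured 222 CPM (219 to 226) against 13.9 (log2 3.28; libraries 169 to 276), and Col5a2, which sets the width of fibrils, 136 CPM (133 to 138) against 6.95 (log2 3.11). Col9a3, a chain that decorates cartilage fibrils, measured 48.0 CPM (46.5 to 49.6) against 3.35 (log2 2.12). Thinned shares of cells with a UMI were 51.3% for Col27a1, 35.5% for Col16a1, 23.2% for Col5a2 and 9.58% for Col9a3, compared with 1.51%, 1.69%, 1.52% and 0.49% in T or NK cells. Unthinned, the astrocyte shares were 70.9%, 60.8%, 46.8% and 23.5%. Library 3 stood apart for Col5a2, at 222 CPM against 119 to 138 in the others, and for Col9a3, at 86.5 against 39.0 to 47.9. Of the 1171 cells of astrocyte cluster 11, in which Col5a2 stood at 225 and Col9a3 at 86.9 CPM, 1157 came from library 3.

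**Figure D3:**
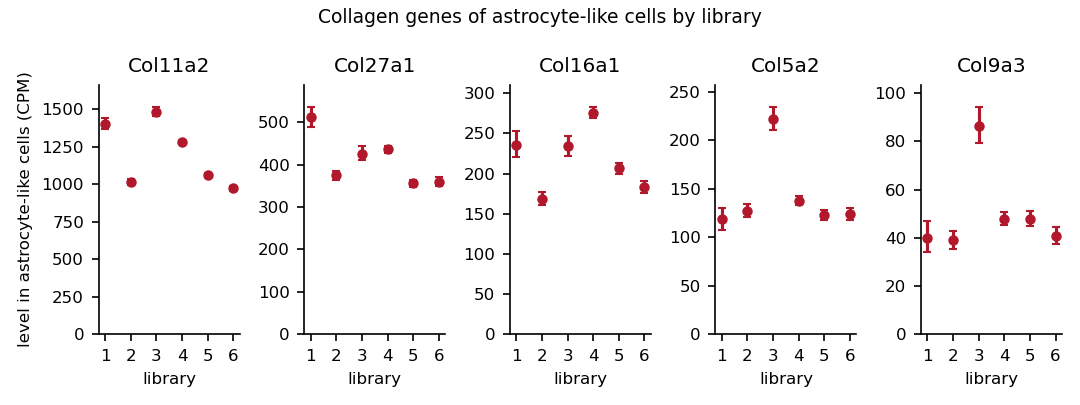
Points give the level (CPM, axes from 0) of each of 5 collagen genes in the astrocyte-like cells of the 6 libraries, with exact Poisson 95% intervals. Col5a2 and Col9a3 are highest in library 3, at 222 and 86.5 CPM.

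The astrocyte genes also varied between the 7 astrocyte clusters. Col11a2 ran from 250 CPM in cluster 8, whose cells had a median of 1318 UMIs, to 2462 CPM in cluster 9, with a median of 3079 UMIs, and Col27a1 from 30.7 to 862 in the same clusters. Cluster 12, which also carried 4 of 6 macrophage markers, had 745 CPM of Col11a2. The part of depth and of mixed barcodes in these differences was not tested. Some chains that join Col11a2 and its relatives in cartilage and other fibrils were sparse in astrocytes: Col2a1 gave 7 UMIs, Col9a1 34, Col11a1 99 and Col5a1 131 among 77861841. Others were not as sparse: Col5a2 stood at 136 CPM, Col5a3 at 12.1 to 21.9 CPM over libraries, and Col9a3 and Col9a2 gave 3739 and 510 UMIs. A Col11a1 UMI occurred in 86 of the 10090 cells with Col11a2. Col27a1 was seen in 82.0% of the astrocytes with Col11a2 and in 7.82% of those without; the cells were not matched for depth.

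The 143 precursor-like cells were marked by Col5a3, a fibril-forming type V chain, at 1339 CPM (1257 to 1426) against 18.3 in the other classes (log2 5.58). The next class, vessel wall cells, stood at 72.9 CPM (46.2 to 109). A Col5a3 UMI was present in 93.7% of precursors, 84.1% of 140 after thinning, and in 1.70% of T or NK cells, 0.69% after thinning. Only libraries 1 and 4 held 20 or more of these cells (60 and 51), and in them Col5a3 measured 1206 and 1531 CPM. Precursors also had higher Col27a1 (142 CPM, 116 to 173; log2 2.95), Col16a1 (121 CPM, 96.7 to 148; log2 2.45) and Col11a1 (42.5 CPM, 28.8 to 60.3; log2 2.39). Col4a1 stood at 84.9 CPM (65.1 to 109) in 49 cells and Col4a2 at 21.9 CPM in 16, both called. In precursors the endothelial markers summed to 16.4 CPM and the pericyte markers to 21.9, against 4470 and 2628 in endothelial-like cells. The fibroblast markers, a list that shares Pdgfra with the precursor list, summed to 2202 CPM with 3 of 11 passing, against 614 in endothelial-like and 9171 in vessel wall cells, and their part in the type IV levels was not tested. The same list summed to 7613 CPM in mature oligodendrocyte-like cells with 1 of 11 passing, so its sum is not particular to fibroblasts. Col25a1, a transmembrane collagen, was called too, at 14.1 to 20.0 CPM in libraries 1 and 4, but rested on 15 UMIs. With a mitochondrial limit of 10% in place of 20%, 86 precursor-like cells remained, 34 of them from the mixed cluster 27, mature oligodendrocyte markers rose from 1056 to 13246 CPM, and the sum fell to 1289.8 CPM, with Col5a3 at 623, Col16a1 at 57.8, Col27a1 at 89.0, Col4a1 at 39.0 and Col9a3 at 176.

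Along the oligodendrocyte lineage Col9a3, 1 of 3 type IX chains, was called in each class, as it was in astrocytes and cluster 26, while Col9a1 was called in no class. Col9a3 measured 111 CPM (88.1 to 138) in precursors, 172 CPM (143 to 205) in the 90 cells of cluster 27, which carry precursor and mature markers, and 142 CPM (132 to 154) in 833 mature oligodendrocyte-like cells. In the mature cells the libraries read 142, 135, 136, 132, 156 and 94.9 CPM, the last from 25 cells. Col9a2 was called in precursors (30.1 CPM, 18.9 to 45.6) and mature cells (interval 22.5 to 32.1 CPM), was not called in cluster 27, and over libraries ranged from 11.3 to 44.0. Col5a3 was not called in cluster 27 or in mature cells. Cluster 27 alone among the classes with 20 UMIs stood high for Col20a1, a fibril-associated chain, at 67.5 CPM (49.9 to 89.2) in 29 of 90 cells, against 1.97 elsewhere (log2 2.69), and had Col11a1 at 60.6 CPM (44.0 to 81.4). The overlap with Chrna4 applies to this value. Mature cells also had Col16a1 at 50.2 CPM (44.0 to 57.0; log2 1.33).

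The vessel wall cluster held 82 cells and passed 10 of 11 fibroblast and 8 of 12 pericyte and smooth muscle markers. By which list held more of a cell's UMIs it was split into 22 fibroblast-side cells, 58 pericyte-side cells and 2 ties, with 4 and 7 cells near the split. The cluster also passed 5 of 13 astrocyte, 2 of 9 oligodendrocyte precursor and 3 of 10 mature oligodendrocyte markers. The part of mixed cells in the collagen levels of this cluster, among them Col27a1, Col5a3 and Col11a1, was not tested. The fibroblast side carried the classical fibril collagens. Col1a1, the main chain of type I fibres, gave 144 of its 147 UMIs there, at 953 CPM (804 to 1122), against 19.6 on the pericyte side. Col1a2, its partner, stood at 854 CPM (713 to 1014) against 84.7 (45.1 to 145). Col12a1, which coats type I fibres, gave 95 of 96 UMIs there at 629 CPM (509 to 769), and Col18a1, the source of endostatin, 589 CPM (473 to 725) against 65.2 (31.3 to 120). Col13a1, a transmembrane collagen, and Col15a1, of basement membrane zones, gave 30 and 21 UMIs on the fibroblast side and 0 on the pericyte side, which allows up to 19.5 CPM there. Col3a1, the chain of type III fibres, stood at 304 CPM (223 to 406) on the fibroblast side and 248 (175 to 340) on the pericyte side, intervals that overlap. Its UMIs lay in 16 of the 22 fibroblast-side cells but in 10 of the 58 pericyte-side cells, so fewer cells carried the pericyte-side level.

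The pericyte side carried more type IV and VII collagen. Col4a1 stood at 1616 CPM (1421 to 1830) against 364 (274 to 474) on the fibroblast side, and Col4a2 at 554 (442 to 685) against 126 (75.7 to 196). A single cell of library 5 gave 146 of the 248 Col4a1 UMIs; without it the pericyte side stood at 742 CPM (605 to 901) for Col4a1 and 386 (289 to 505) for Col4a2, and the whole cluster at 525 CPM in place of 961 for Col4a1. Col7a1, which forms anchoring fibrils, measured 235 CPM (164 to 325) on the pericyte side and 39.7 on the fibroblast side, and Col5a2 326 (242 to 430) against 99.3 (55.6 to 164). The beaded-filament chains Col6a1 and Col6a2 were high on both, at 639 and 384 CPM on the pericyte side and 371 and 245 on the fibroblast side, and Col6a3, with 14 of 15 UMIs, on the fibroblast side. In the whole cluster Col1a1 by library stood at 153, 1194, 0, 51.9, 330.0 and 0 CPM, from 3 to 27 cells each, so library 2 was highest. Leaving out library 2 lowered Col1a1 from 466 to 238 CPM and Col12a1 from 304 to 192. Leaving out library 5 lowered Col5a2 from 206 to 118, Col5a3 from 72.9 to 35.3, Col15a1 from 66.6 to 41.2, Col27a1 from 82.5 to 53.0 and Col4a1 to 547. As a mean over cells in place of summed UMIs, Col1a1 stood at 239, Col1a2 at 243, Col12a1 at 144, Col18a1 at 195, Col13a1 at 59.1 and Col15a1 at 42.5 CPM.

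**Figure D4:**
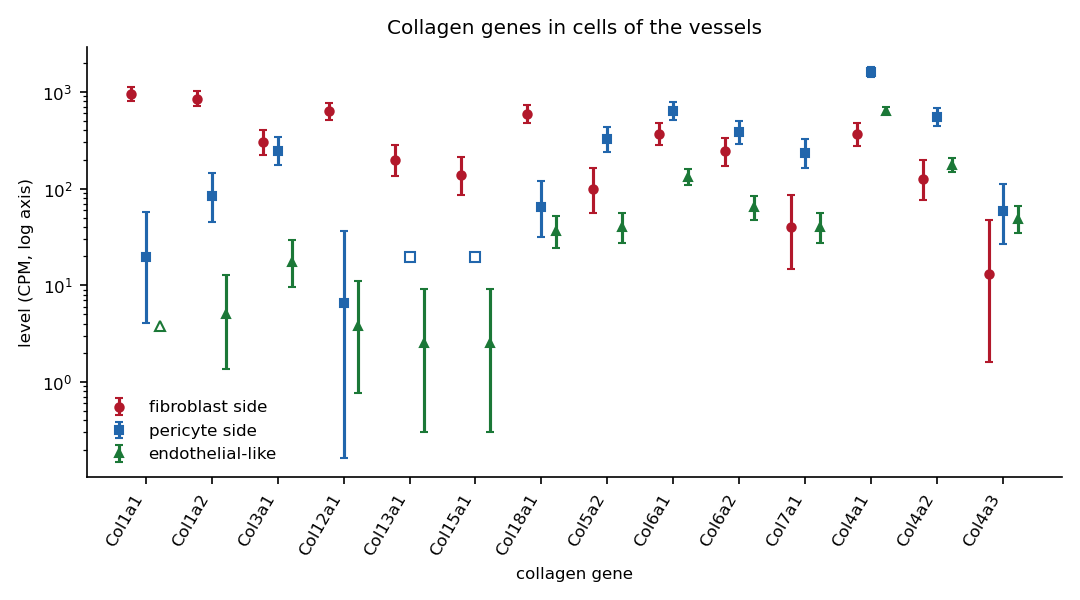
Points give the level (CPM, log axis) of 14 collagen genes in fibroblast-side, pericyte-side and endothelial-like cells, with exact Poisson 95% intervals; open symbols have 0 UMIs and stand at the level that 3 UMIs would give. Col1a1, Col12a1, Col13a1 and Col15a1 lie highest on the fibroblast side, Col4a1 on the pericyte side.

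In 119 endothelial-like cells Col4a1 measured 643 CPM (588 to 701) against 1.05 in the other classes (log2 5.88) and Col4a2 177 CPM (149 to 208; log2 4.18). By library Col4a1 stood at 667, 566, 201, 161, 958 and 565 CPM, from 3, 14, 32, 2, 56 and 12 cells, so library 5 was highest. Without library 5 Col4a1 was 383 CPM, and without the 1 cell with 164 of the 513 UMIs it was 474. Col4a3, a type IV chain of specialised basement membranes, was higher here than in any other class with 20 UMIs, at 48.8 CPM (34.7 to 66.8). Col6a1 (133 CPM, 109 to 161), Col6a2 (63.9, 47.6 to 84.0), Col7a1 (40.1, 27.4 to 56.6), Col5a2 (40.1, 27.4 to 56.6) and Col18a1 (36.3, 24.3 to 52.2) were called as well. As a mean over cells Col6a2 stood at 35.6, Col7a1 at 26.1 and Col5a2 at 22.3 CPM. This class also passed 7 of 12 pericyte markers. In its 22 cells with more pericyte than endothelial marker UMIs Col6a1 measured 293 CPM (223 to 379), Col7a1 96.1 (57.8 to 150) and Col4a1 501 (407 to 609). In the 95 cells with more endothelial marker UMIs Col6a1 measured 80.1 (59.1 to 106), Col7a1 21.7 (11.5 to 37.1) and Col4a1 691 (626 to 761). With finer clusters (resolution 2.0) 81 cells kept the endothelial name, pericyte markers fell from 2628 to 499.97 CPM, and Col6a1 to 27.8, Col6a2 to 11.1, Col7a1 to 2.78, Col18a1 to 13.9 and Col5a2 to 22.2. With the 10% mitochondrial limit the same genes stood at 31.8, 12.7, 0, 15.9 and 22.3 CPM in 65 cells, and pericyte markers at 420. Fibroblast markers fell from 614 CPM to 186 with finer clusters and to 175 with this limit. Col4a1 rose to 864 and 893 CPM under these settings, Col4a2 to 217 and 213 and Col4a3 to 58.3 and 63.6. The part of mixed cells in these levels was not tested. Without library 3 Col18a1 was 24.0 CPM.

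Co-detection of chains that join in 1 protein differed between pairs and classes. In endothelial-like cells 47 of the 54 cells with Col4a2 also had Col4a1 (87.0%), and Col4a2 was found in 60.3% of the cells with Col4a1 and 17.1% of those without. On the pericyte side 19 of 26 Col4a2 cells had Col4a1, and UMIs of Col4a1 outnumbered those of Col4a2 by 2.92 to 1, by 2.89 on the fibroblast side and by 3.64 in endothelial cells. Outside the vessel classes Col4a2 was found in 12.2% of precursors with Col4a1 and 10.6% of those without, and in 2.53% and 1.15% of astrocytes. Of precursors with Col4a2, 37.5% held Col4a1. In microglia-like cells the shares with Col4a2 were 8.70% and 0.41%, with 14 cells holding both. In the myeloid cluster 6 they were 11.1% and 0.20%, with 4 cells holding both. Mature oligodendrocytes gave 0 UMIs of Col4a2 in 833 cells, so the pair could not be seen together there. On the fibroblast side 15 of the 16 Col1a1 cells held Col1a2, and 14 held Col3a1, which is a separate fibre protein. Col6a2 cells held Col6a1 in 36 of 42 vessel wall cells and in 22 of 26 endothelial cells. Col9a3 was found in 28.9% of astrocytes with Col9a2 and 23.3% of those without, and in 55.8% and 51.4% of mature oligodendrocytes. Col11a1 was found in 14.8% of precursors with Col11a2 and 18.0% of those without. The cells were not matched for depth, so these shares describe co-detection only.

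Myeloid cells had little collagen. Col25a1, a transmembrane collagen found in amyloid plaques, measured 17.3 CPM (16.4 to 18.1) in 17606 microglia-like cells, 18.2 (16.4 to 20.2) in cluster 6, a myeloid cluster led by Mmp2, Lyve1 and C1q genes, and 15.4 (12.7 to 18.6) in cluster 14, microglia with MHC class II genes. These were its only calls in myeloid classes, 1 of 2 calls in cluster 6 (3.42% of all genes) and the only call in cluster 14 (2.93%). Outside them Col25a1 was also called in precursor-like cells, on 15 UMIs. In 8163 Clec7a/Lyz2 macrophage-like cells Col25a1 measured 0.34 CPM (0.19 to 0.57), from 15 UMIs. By library 1 to 6 the microglia read 19.2, 25.1, 8.94, 7.12, 23.9 and 6.77 CPM, and the macrophages 4.03, 3.55, 2.11, 0, 0.64 and 0.11. The microglia were the higher class in 6 of 6 libraries, with intervals apart in libraries 2, 4 and 5. The macrophage values of libraries 1 to 3 rested on 1 UMI each, as did the microglial value of library 6. The macrophage class was made of different clusters by library. In libraries 1 to 3, 117 of 121, 65 of 79 and 149 of 167 of its cells were cluster 17, which had a median of 1913 UMIs and passed 4 of 6 macrophage and 8 of 11 microglial markers, while libraries 4 to 6 gave mostly cells of clusters 0, 13 and 16, which passed 6 of 6. In library 4 the 0 macrophage UMIs allow up to 0.33 CPM. A Col25a1 UMI was present in 8.06% of microglia and 0.57% of T or NK cells, 3.48% (of 16667 cells) and 0.23% after thinning. The log2 ratio of Col25a1 in microglia was 1.29, just past the limit, and the call was lost when the mean of the other classes was the reference.

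Col4a3 measured 15.04 CPM (14.3 to 15.9) in microglia, 17.2 (15.4 to 19.2) in cluster 6, where it was the other call, and 3.92 (3.35 to 4.55) in Clec7a/Lyz2 macrophages. Col15a1 measured 9.49 CPM (8.87 to 10.2) in microglia and 2.52 (2.07 to 3.04) in the macrophages, and Col9a2 6.85 (6.32 to 7.41) and 0.92 (0.65 to 1.25). By library the order of these 3 genes was not uniform. Col4a3 stood in libraries 1 to 6 at 15.9, 18.3, 10.9, 15.4, 28.2 and 0 CPM in microglia and at 0, 10.6, 8.45, 3.94, 5.47 and 2.36 in macrophages, with intervals apart in libraries 4 and 5. Col15a1 stood at 9.64, 11.7, 7.58, 6.53, 10.1 and 6.77 in microglia and at 16.1, 7.09, 8.45, 1.31, 3.43 and 1.91 in macrophages, so the macrophages were higher in libraries 1 and 3, on 4 UMIs each, and intervals were apart in libraries 4 and 5. Col9a2 reached 8.34 in microglia and 8.45 in macrophages, both in library 3, and its intervals overlapped in every library. Col5a3 was closer between them, at 28.3 CPM (27.3 to 29.4) and 22.8 (21.4 to 24.3), and in libraries 4 and 5 at 26.1 and 28.9 against 29.8 and 23.6. Over all 6 libraries it ranged from 6.77 to 32.7 CPM in microglia and from 3.55 to 29.8 in macrophages. T or NK cells held 3.57 CPM of Col5a3 (2.04 to 5.79). Border macrophage-like cells, with 99 cells, gave 0 UMIs of Col25a1, which allows up to 6.11 CPM, and 6 of Col5a3.

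**Figure D5:**
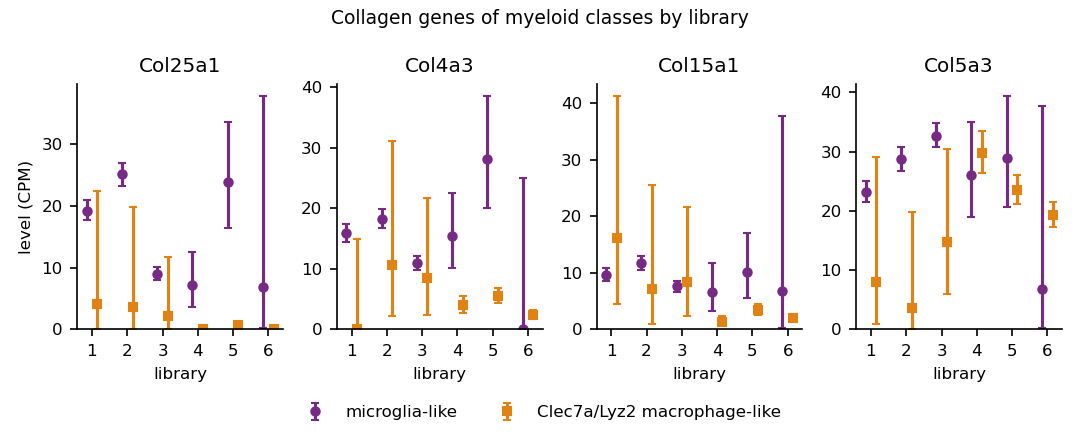
Points give the level (CPM, axes from 0) of Col25a1, Col4a3, Col15a1 and Col5a3 in microglia-like and Clec7a/Lyz2 macrophage-like cells of each library, with exact Poisson 95% intervals. Col25a1 is higher in microglia in each library, although some of these values rest on few UMIs, while Col5a3 overlaps between the classes in libraries 4 and 5.

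The remaining members were sparse. Col28a1, related to type VI chains, gave 88 of its 119 UMIs in cluster 34, 40 cells led by Pcp4, Ndnf and Reln, at 280 CPM (224 to 345) in 32 of the 40 cells; this cluster was too small for the calls. Of the members with under 30 UMIs, Col26a1 gave 78.3% of 23 UMIs in T or NK cells, Col14a1 71.4% of 14 in mature oligodendrocytes, Col8a2 57.1% of 14 and Col8a1 53.8% of 13 in vessel wall cells, and Col2a1 77.8% of 9 in astrocytes. Col4a6, with 9 UMIs, was called in vessel wall cells, as were Col6a3, Col4a3, Col11a1 and Col28a1 with 15, 11, 7 and 8. The B cell-like class had 1 call (5.31%), Col20a1 on 3 UMIs. The 10 members called in no class were Col5a1, Col6a4, Col6a6, Col9a1, Col10a1, Col17a1, Col19a1, Col22a1, Col23a1 and Col24a1, with totals of 38 to 395 UMIs. Col24a1, a fibril-forming chain, gave 92.02% of 351 UMIs in astrocytes (4.15 CPM), and Col19a1 76.6% of 47 in Clec7a/Lyz2 macrophages.

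Genes that fold, process, bind and degrade collagen were taken from fixed lists. Counts are over the list members with at least 30 UMIs. In vessel wall cells 10 of 11 basement membrane partners (14 in the matrix) were called, where 10.1% of all genes were, with a median log2 ratio of 3.74 against 0.02 for all genes. They were led by Nid1 (nidogen, 495 CPM, log2 5.59), Lamc3 (304 CPM, log2 4.97), Lamc1 (276 CPM, log2 4.16), Lama4 (140 CPM, log2 3.85) and Lamb2 (232 CPM, log2 3.80), laminin chains. Endothelial-like cells called 10 of 11 too (median 2.42, all genes 0; 9.34% of all genes called), led by Lama4 (148 CPM, log2 3.93). The 16 folding genes (18 in the matrix) had 6 calls in vessel wall cells, 5 in astrocytes (11.8% of all genes) and 3 in endothelial cells, with median log2 ratios of 0.56, 0.49 and 0.27 against 0.02, 0.05 and 0 for all genes. In precursors they had 3 calls (16.9% of all genes) and a median of 0.24 against 0.25 for all genes, which is near the background. Groups with little collagen also had raised folding medians: microglia 0.34 (2 calls, 3.24% of all genes), cluster 6 0.42 (1 call, 3.42%) and cluster 14 0.37 (2 calls, 2.93%). Clec7a/Lyz2 macrophages stood at -0.34 and T or NK cells at -0.77, each with 0 calls. The folding medians thus did not rank the classes by their collagen level. Serpinh1, the collagen chaperone HSP47, measured 615 CPM in vessel wall cells, 327 in endothelial cells and 262 in astrocytes (log2 4.27, 3.38 and 3.07), and P4ha2, a prolyl hydroxylase, 124, 90.2 and 86.0. In astrocytes Fkbp10 (41.0 CPM, log2 1.31), P3h4 (36.3, log2 1.08) and Plod2 (18.3, log2 1.37) were called as well. Of 8 processing genes (11 in the matrix) 6 were called in vessel wall cells (median 1.63), with Pcolce at 190 CPM and Loxl2 at 121, and 3 in astrocytes (median 0.22), Bmp1 (74.3), Loxl1 (34.4) and Loxl3 (16.2).

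Among 9 collagen receptors (10 in the matrix), 5 were called in vessel wall cells (median 1.05 against 0.02 for all genes, of which 10.1% were called), led by Itga1 (114 CPM, log2 3.63) and Ddr2 (95.1 CPM, log2 3.09), and 3 in astrocytes, where their median was 0.07 against 0.05 for all genes, of which 11.8% were called: Adgrg1 at 948 CPM (log2 3.35), Ddr1 at 130 (log2 2.41) and Ddr2 at 34.0 (log2 1.84). Lair1, an inhibitory receptor for collagen on immune cells, was the 1 receptor called in Clec7a/Lyz2 macrophages (3.75% of all genes), at 53.2 CPM against 2.58 elsewhere (log2 2.33). Of 6 degrading enzymes (7 in the matrix) 4 were called in vessel wall cells (median 1.76), led by Ctsk (323 CPM, log2 4.73), and 3 in microglia (median 0.88 against -0.01 for all genes, of which 3.24% were called), Mmp2 (91.6 CPM), Ctsb (1791) and Ctsk (32.4). The same 3 were called in cluster 6, where Mmp2 reached 336 CPM (log2 3.82). Sparc, a collagen-binding protein, stood at 6294 CPM in microglia (log2 2.65), and Colgalt1 at 147 CPM and P4ha1 at 465 CPM were their called folding genes.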

How the data were processed

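Hippocampal cells of 3 control and 3 irradiated rats were profiled by 10x Genomics single-cell RNA-seq. The authors deposited 1 matrix of raw UMI counts per gene and barcode, per the file headers; the submitters' processing notes name Cell Ranger 7.0.0 and the mouse build mm10, while the gene identifiers in the file are rat. From 58078 barcodes, 9227 over 20% mitochondrial UMIs and 177 with fewer than 500 UMIs or 200 genes were removed (some barcodes met both), leaving 48704, and 3904 (8.02%) with the highest scores against simulated doublets were removed. Barcodes over the mitochondrial limit alone held collagen at 1983 CPM (counts per 1000000 UMIs), against 753 in kept cells. Free RNA was not estimated. Clusters (Leiden, resolution 1.0, 30 components of 2000 variable genes with collagens left out; Python 3.11.15, scikit-learn 1.9.0, leidenalg 0.10.2) numbered 36 and were named from marker lists. Counts were summed by class, and the calling rule was tested on simulated data. The raised genes there had a higher pooled level than most collagen genes and counting noise only. That check therefore does not cover sparse collagen genes or levels carried by single cells. Named are collagen genes called with at least 20 UMIs in the class, the 10 with most UMIs, and, of each list of related genes, up to 5 with the highest ratios in vessel classes and those called in astrocytes or a myeloid class; others with few UMIs were added after their values were seen, and the split of endothelial-like cells and the removal of single cells were chosen after seeing the data. The members, markers and lists were chosen with earlier results of these data known.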

Additional observations from a re-analysis of the deposited data

How the results depend on the processing

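No paired analysis was possible because the libraries are tied to no sample and no result comes from a test. With 1 CPM added in place of 10, collagen genes called rose to 11 in astrocyte-like, 17 in precursor-like, 15 in endothelial-like and 3 in microglia-like cells. With the mean of the other classes as reference the microglia had 0, and with resolution 2.0 or doublets kept 2. The shares of all genes called under these settings were not computed. As a mean over cells, the summed level was 2162 CPM in astrocytes, 2287 in precursors, 1063 in endothelial cells, 3854 in vessel wall cells, 182 in microglia and 178 in Clec7a/Lyz2 macrophages. With collagen genes in the clustering the microglia stood at 173 CPM. With a 10% mitochondrial limit the sums were 1924 in astrocytes, 1289.8 in precursors, 5341 in vessel wall cells, 159.8 in microglia and 131 in Clec7a/Lyz2 macrophages, and with doublets kept 1965 in astrocytes and 1945 in precursors. Chosen after seeing the data, leaving out astrocyte cluster 12 gave 2054 CPM, and leaving out Col11a2 gave 855 in astrocytes, 1949 in precursors, 103 in microglia and 68.4 in Clec7a/Lyz2 macrophages.

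With each library left out in turn, the sums ran from 1909 to 2072 CPM in astrocytes, 1898.0 to 2240 in precursors, 981 to 1508 in endothelial cells, 4273 to 5367 in vessel wall cells, 154 to 183 in microglia and 126 to 188 in Clec7a/Lyz2 macrophages, and the genes called stayed at 5, 9 to 11, 8 to 9, 19 to 21, 1 to 2 and 0. The microglia had 2 calls without library 1. Of 39 gene levels, 24 of 195 values under planned settings lay over 1.5 times from the level reported, and 9 of 234 with a library left out. The cause was not tested. Rare classes limit depth: vessel wall cells held 315339 UMIs, so 3 UMIs there stand for 9.51 CPM.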
